A study of Mus musculus with 15 samples.

Results

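CD numbers (cluster of differentiation) are the catalogue names of leukocyte surface molecules, given to proteins that panels of monoclonal antibodies recognise. The genes described here are those of the eosinophil RNA tables whose symbol is Cd, digits, and at most a letter and a further digit. Of the 25101 genes listed, 88 symbols had this form, 6 were left out by the rule, and 82 were kept. Their levels in 2 eosinophil libraries were set beside 1 macrophage library and 1 neutrophil library of other studies. The question is which CD transcripts tell cultured eosinophils apart from these other myeloid cells. A symbol is not proof of a surface antigen: Cd5l encodes a secreted protein, and Cd99l2, Cd164l2 and Cd163l1 are relatives of CD genes without a CD number of their own. Surface proteins with another kind of symbol, such as integrins and most Fc receptors, fall outside the rule, and mRNA was measured, not protein.

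Eosinophils are granulocytes with cationic granule proteins that act in allergy and against helminths. Which CD antigens a leukocyte carries decides what it adheres to, which complement attack it withstands, and which signals from T cells, other leukocytes and stroma it can receive or send. Flow cytometry of eosinophils commonly relies on such antigens, and CD63, a tetraspanin of granule membranes, is used as a sign of degranulation because it reaches the surface when granules fuse with it.

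The eosinophils were BALB/c bone marrow cells, unselected at the start, in culture for 14 days. From day 0 to day 3 the medium held 100 ng/mL of stem cell factor (SCF) and 100 ng/mL of FLT3L, and from day 4 to day 14 it held 10 ng/mL of IL-5, the main growth factor of eosinophils. No other genotype, strain or treatment was measured by RNA sequencing, and the labels do not say whether the 2 libraries came from separate mice, so the spread between them may be technical. The macrophage and neutrophil tables carry a run number alone in their headers: what strain, age, treatment and library preparation those cells had was not given in the sources used here. Cell type, strain, study and library preparation therefore cannot be told apart in any difference below, and the outside values have no SD and no p. Because the cultures were sequenced in bulk, fewer cells of a type and less RNA per cell cannot be told apart either.

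The eosinophil libraries held 40306679 and 30465490 counts, the macrophage library 106940777 and the neutrophil library 6390310. A count was divided by its library's total to give CPM (counts scaled to a common library total), on which 3 counts, the limit that a count of 0 allows, were worth 0.0744, 0.0985, 0.0281 and 0.469 CPM in that order. CPM is not corrected for transcript length, so it compares a gene between libraries and not genes with each other. The neutrophil library stood apart: 8 of its genes exceeded 1000 CPM, against 82 and 92 in the eosinophil libraries and 76 in the macrophage library, and Actb was at 333 CPM there against 4011, 4761 and 2356. The median of 84 ribosomal protein genes was 43.7 CPM in it, against 308, 301 and 217. The part of this flat profile in the differences from neutrophils was not tested, and the counts were repeated under a normalisation that gives all libraries the same profile (closing section).

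Marker genes were used to check what each library held. The 10 eosinophil markers, granule proteins and receptors such as Prg2 and Ccr3, summed to 13705 and 14022 CPM in the eosinophil libraries, 4.32 CPM in the macrophage library and 425 CPM in the neutrophil library. In the neutrophil library 10 of 10 reached 1 CPM, and in the macrophage library 1 did. The 12 macrophage markers summed to 17363 CPM in the macrophage library and to 6564 and 8032 CPM in the eosinophil cultures, where 11 of 12 were detected and Marco was at 0. Under the 4-fold rule given below, 4 of the 12 (C1qa, C1qb, C1qc and Mertk) were lower in the cultures than in the macrophage library. Msr1 was higher, at 242 and 238 CPM in the cultures beside 31.5 CPM in the macrophage library. The 13 neutrophil markers summed to 2639 CPM in the neutrophil library, where 12 reached 1 CPM, to 129 CPM in the macrophage library, and to 2349 and 2046 CPM in the cultures, where 13 of 13 were detected. By the 4-fold rule given below, 3 of the 13 were lower in the cultures than in the neutrophil library and 1 was higher. Cxcr2 was at 61.1 and 60.9 CPM in the cultures and 402 CPM in the neutrophil library, but Ly6g was at 388 and 381 CPM beside 111 CPM. The cultures thus held transcripts used as markers of the very cells they are compared with, and their part in the levels of the CD genes was not tested.

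**Figure D1:**
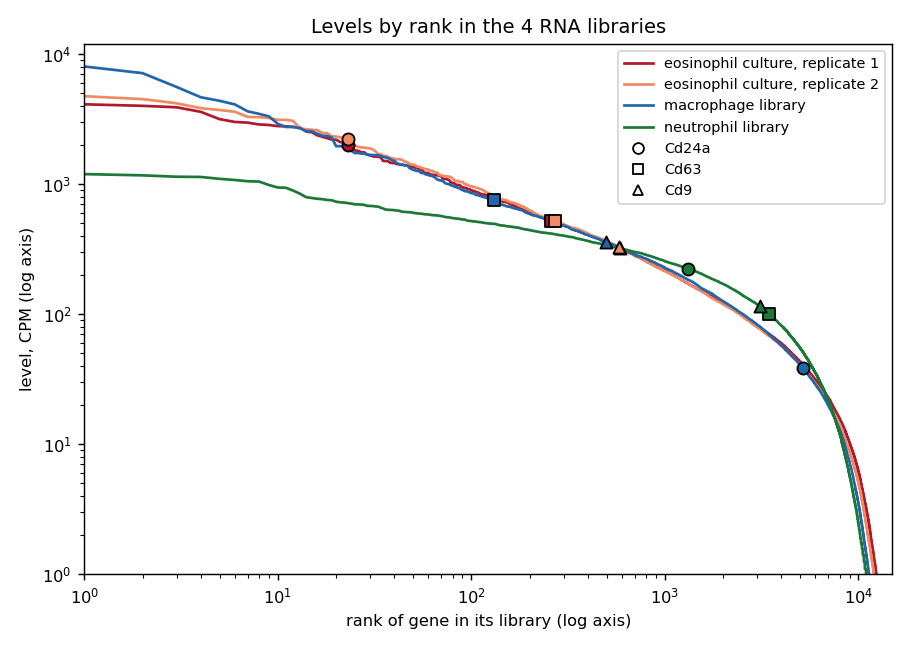
Level in CPM (log axis) of the genes of each library against their rank in that library (log axis), 1 line per library, with Cd24a, Cd63 and Cd9 marked. The neutrophil line starts at 1196 CPM and runs flatter than the other 3, which start between 4122 and 8057 CPM. Cd24a had rank 23 in both eosinophil libraries, 5172 in the macrophage library and 1318 in the neutrophil library. Ranks are by CPM and are not corrected for transcript length.

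Detection, meaning at least 1 CPM in both eosinophil libraries, was reached by 52 of the 82 CD genes (63.4%), beside 47.5% of all genes. In 15 CD genes both libraries exceeded 100 CPM. In contrast, Cd70, Cd209b and Cd209f had no count in either library. A gene was called higher or lower than an outside library when both eosinophil libraries lay at least 4-fold above or below it on the log2(CPM + 1) scale. This is a rule of size and not a test. It understates the difference of genes with low levels, and no filter on low values was used.

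Against the macrophage library 12 of the 82 CD genes (14.6%) were higher, beside 4.24% of all 25075 genes shared by the 4 tables, and 9 (11.0%) were lower, beside 2.03%. Against the neutrophil library 19 (23.2%) were higher, beside 5.96%, and 4 (4.88%) were lower, beside 3.48%, a share near the background. In the 13200 genes with at least 1 CPM in any library, the background shares were 8.05% and 3.85% against macrophages and 11.3% and 6.61% against neutrophils, and 63 of the 82 CD genes belong to these. The median difference of the 82 genes was 0.24 on the log2(CPM + 1) scale against macrophages and 0.67 against neutrophils. It was 0 for all shared genes in both cases, many of which lie near 0 CPM. Among genes of at least 1 CPM in any library, the medians were 0.43 and 1.10 for the 63 CD genes. For all 13200 such genes they were 0.06 and −0.03. For the ribosomal protein genes the median difference was 0.30 against macrophages and 2.56 against neutrophils, the latter past the size of the 4-fold rule. Both comparisons share the eosinophil libraries. Against both outside libraries 6 CD genes were higher, beside 1.46% of all genes, and 0 were lower, beside 0.363%. Called against neither were 47 genes.

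**Figure D2:**
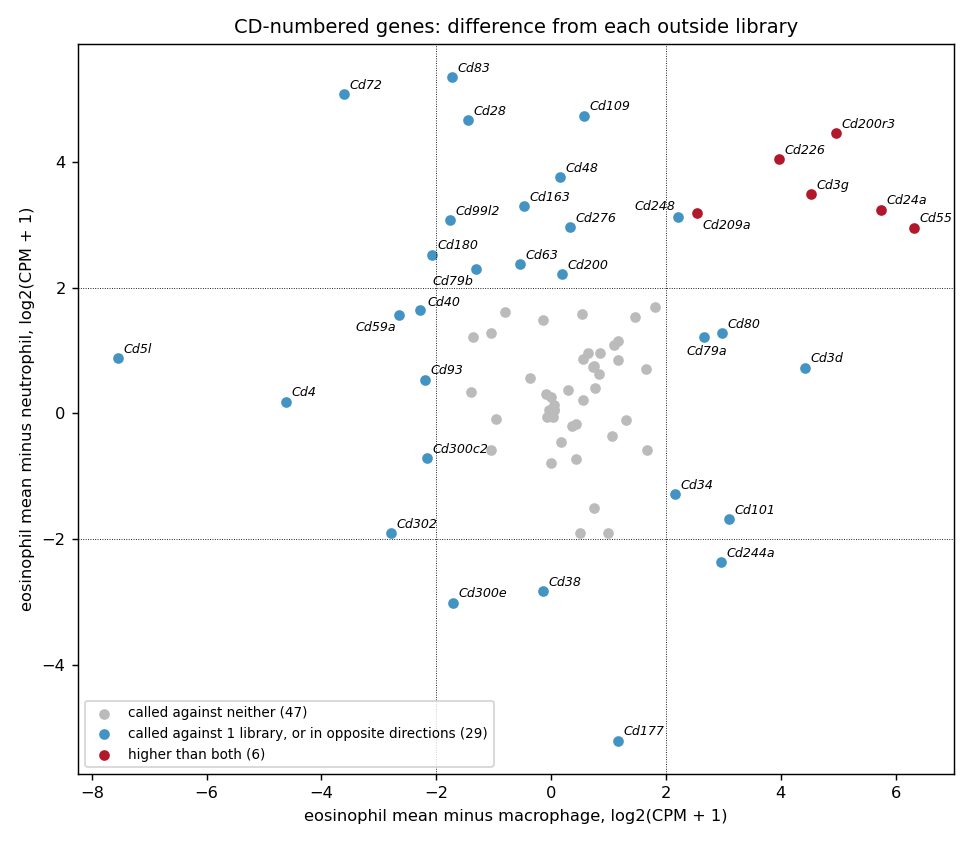
Difference of each of the 82 CD genes between the eosinophil mean and the macrophage library (horizontal axis) and the neutrophil library (vertical axis), in log2(CPM + 1), with dotted lines at 2 and −2, the size of the 4-fold rule. The 6 red points at the upper right, Cd24a, Cd55, Cd200r3, Cd226, Cd3g and Cd209a, met the rule in both libraries against both cell types. Cd248 lies past both lines by its mean but missed the rule against macrophages in replicate 2.

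The 6 genes higher than both were Cd24a, Cd55, Cd200r3, Cd226, Cd3g and Cd209a, which belong to 5 of the 14 lists by role used below. For the 4 of them whose promoters could be printed, the 250 bases before the transcription start are shown to let a reader look for what they share (RefSeq, GRCm38.p6). Capitals mark the letters AGATAA or TTATCT, a core that GATA factors bind, and GAGGAAG or CTTCCTC, a core that PU.1 binds, searched on both strands. GATA1 and PU.1 are transcription factors of the eosinophil lineage. Matches of the sets can overlap where they share the letters CT or AG, and none overlapped in the windows shown. The windows are chr16:44943428-44943677 (plus strand) for Cd200r3, chr9:44980432-44980681 (minus) for Cd3g, chr1:130462745-130462994 (minus) for Cd55 and chr8:3748985-3749234 (minus) for Cd209a.
Cd200r3: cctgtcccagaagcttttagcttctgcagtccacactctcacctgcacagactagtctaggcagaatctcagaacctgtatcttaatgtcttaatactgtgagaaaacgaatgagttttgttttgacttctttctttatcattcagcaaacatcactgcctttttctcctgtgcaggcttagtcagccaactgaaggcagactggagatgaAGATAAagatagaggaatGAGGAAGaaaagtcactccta
Cd3g: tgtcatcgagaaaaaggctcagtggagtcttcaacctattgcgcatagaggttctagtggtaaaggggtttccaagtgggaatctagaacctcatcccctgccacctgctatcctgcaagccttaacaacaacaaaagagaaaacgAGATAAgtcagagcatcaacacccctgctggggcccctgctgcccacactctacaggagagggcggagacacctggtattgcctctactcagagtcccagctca
Cd55: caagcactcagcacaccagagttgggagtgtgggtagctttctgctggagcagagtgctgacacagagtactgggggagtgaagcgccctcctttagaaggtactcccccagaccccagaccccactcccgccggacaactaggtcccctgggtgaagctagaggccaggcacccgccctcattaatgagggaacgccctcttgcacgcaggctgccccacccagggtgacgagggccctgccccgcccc
Cd209a: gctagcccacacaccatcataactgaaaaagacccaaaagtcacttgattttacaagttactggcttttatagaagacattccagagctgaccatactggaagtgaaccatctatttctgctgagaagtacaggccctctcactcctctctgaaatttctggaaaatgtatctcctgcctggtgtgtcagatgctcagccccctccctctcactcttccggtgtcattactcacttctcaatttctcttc
Cd200r3 held 1 GATA match, starting at base −39 from the start, and 1 PU.1 match at −21. Cd3g held 1 GATA match at −104. Cd55 and Cd209a held neither set of letters. Of the 59 CD genes found in the promoter table, 13 (22.0%) held the GATA letters and 13 (22.0%) the PU.1 letters, beside 11.4% and 12.0% of 27025 genes. No test was made of these shares, and a match describes letters in this window, not a bound site.

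Cd24a encodes a small, heavily glycosylated protein held to the membrane by a lipid anchor, a ligand of selectins and Siglecs and a common antigen in the gating of granulocytes. Its level was 1999 and 2238 CPM in the eosinophil libraries, 38.3 CPM in the macrophage library and 223 CPM in the neutrophil library. Both cultures lay far above either outside library, and the replicates were close to each other beside that distance. The mean of 2119 ± 169 CPM (SD, n = 2) was 55.3-fold the macrophage level and 9.51-fold the neutrophil level. Outside the CD genes, Eef1a1, Actb, Ftl1 and Gapdh were 9.89-fold, 13.2-fold, 16.7-fold and 78.3-fold the neutrophil level. All of these were called higher than neutrophils, and none was called against macrophages. The part of the flat neutrophil profile in the Cd24a ratio was not tested. Cd24a was the 23rd gene by CPM in each eosinophil library, a rank not corrected for transcript length. Cd24a met the 4-fold rule against both libraries under every scaling, pseudocount and replicate choice tried.

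Cd55, decay-accelerating factor, stops the complement convertases on the cell's own surface. It was at 94.3 and 77.5 CPM in the cultures and at 10.2 CPM in the neutrophil library, while the macrophage library gave 9 counts, or 0.0842 CPM. The mean of 85.9 ± 11.9 CPM (SD, n = 2) was 8.44-fold the neutrophil level, beside 9.89-fold for Eef1a1. The part of the flat neutrophil profile in the Cd55 ratio was not tested. Against macrophages the ratio was 1020, with a 95% Poisson counting interval from 538 to 2231. The other complement regulators did not share this. Cd46, a cofactor for cleavage of complement fragments, was at 1.19 and 0.886 CPM in the cultures, 0.0281 CPM in macrophages and 6.57 CPM in neutrophils. Cd59a, which blocks the membrane attack complex, was lower than in macrophages, with 2.31 and 1.64 CPM beside 17.6 CPM, an 8.91-fold difference, and had no count in neutrophils. Cd55b, a close copy of Cd55 that can share reads with it, was at 1.64 and 0.722 CPM, 0.0187 CPM in macrophages and 1.72 CPM in neutrophils. In this list of 5 genes 2 were detected, 1 was higher and 1 lower than macrophages, and 1 was higher than neutrophils.

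Cd200r3 belongs to the receptors for, or related to, the inhibitory ligand CD200. Cd200r1 carries the inhibitory signal, and the others pair with activating adaptors; Cd200r3 is best known from mouse basophils and mast cells. Cd200r3 was at 40.2 and 24.5 CPM in the eosinophil libraries, with 4 counts in the macrophage library (0.0374 CPM) and 3 counts in the neutrophil library (0.469 CPM). Both cultures lay well above, but their levels differed 1.64-fold between the replicates. The mean of 32.3 ± 11.1 CPM (SD, n = 2) gave a ratio of 864 to macrophages (counting interval 338 to 3172) and of 68.9 to neutrophils (23.6 to 334). Mast cell and basophil markers moved the same way between the cultures: the 8 markers summed to 117 and 65.6 CPM, a ratio of 1.78, and 8 of 8 were higher in replicate 1. Among them Cpa3 was at 28.2 and 12.9 CPM and Prss34 at 37.0 and 17.6 CPM, and none was at 0 in the cultures. However, 4 of the 8 were detected. Fcer1a (0.595 and 0.525 CPM), Tpsb2 (0.447 and 0.263 CPM) and Cma1 (0.149 and 0.131 CPM) stayed under 1 CPM in both cultures. In the macrophage and neutrophil libraries the 8 markers summed to 10.8 and 78.9 CPM, of which Kit, a receptor that progenitors share, gave 10.3 and 75.0 CPM, beside 24.3 and 20.0 CPM in the cultures. The part of mast cells or basophils in the Cd200r3 level was not tested.

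The neighbouring receptors had no such pattern. Cd200r1 was at 110 and 109 CPM in the cultures, 43.7 CPM in macrophages and 118 CPM in neutrophils, and was called against neither. Cd200r4 was likewise not called, at 73.1 and 71.7 CPM beside 56.3 and 83.7 CPM. Cd200r2 stood at 0.893 and 0.656 CPM in the cultures, 0.252 CPM in macrophages and 5.63 CPM in neutrophils. The ligand Cd200 was at 3.94 and 3.38 CPM, 3.07 CPM in macrophages and at 0 in neutrophils, so that it was at least 7.80-fold higher than the latter. Of the 5 genes 4 were detected, 1 was higher than macrophages, 2 were higher than neutrophils and none was lower. The 4 receptor genes are similar in sequence, and reads shared between them are uncertain.

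Cd226 (DNAM-1) is an adhesion receptor that activates T and NK cells on binding nectin-family ligands. It was at 15.9 and 15.0 CPM in the cultures, with 6 counts in macrophages (0.0561 CPM) and none in neutrophils. The mean of 15.5 ± 0.632 CPM (SD, n = 2) was 276 times the macrophage level (counting interval 127 to 752) and at least 33.0-fold higher than in neutrophils. Here the replicates agreed far more closely than in Cd200r3.

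Genes of the T cell receptor complex were split. Cd3g, a signalling chain of the complex, was at 20.1 and 25.1 CPM in the cultures, with 2 counts in the macrophage library (0.0187 CPM) and 7 counts in the neutrophil library (1.10 CPM). Its mean of 22.6 ± 3.56 CPM (SD, n = 2) was 20.6-fold the neutrophil level (counting interval 10.0 to 51.3), and the ratio to macrophages was 1208, with an interval from 334 to 9974 since it rests on 2 counts. Cd3d, the partner chain encoded beside it, was at 19.2 and 21.5 CPM in the cultures, at 0 in macrophages and at 11.9 CPM in neutrophils. It was at least 726-fold higher than in macrophages and not called against neutrophils. The remaining chains, chosen for mention after their values were seen, were almost without reads: Cd3e had 2 counts and 0 counts in the cultures, and Cd247 had 4 counts in each. How the counting treated strand was not given in the sources used here. Whether some reads counted for Cd3d and Cd3g came from genes that neighbour or overlap them is therefore uncertain.

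Other T and NK cell antigens were close to the floor in eosinophils. Of the 13 genes in this list 3 were detected, Cd3g, Cd3d and Cd226, and these 3 were higher than macrophages. The other 10 (Cd4, Cd5, Cd6, Cd7, Cd8a, Cd8b1, Cd96, Cd160, Cd247 and Cd3e) reached at most 0.992 CPM in the cultures, in Cd7. Cd4, the T helper coreceptor that some macrophages also carry, had 12 counts and 0 counts in the cultures and 27.1 CPM in the macrophage library, and was called lower. The 10 lymphoid markers measured summed to 56.3 and 75.3 CPM in the cultures, of which the receptor gene Il7r gave 48.0 and 69.6 CPM; 2 of the 10 were detected and none was at 0. Their sum was 98.8 CPM in macrophages and 0.469 CPM in neutrophils, where 8 of 10 were at 0. The part of lymphoid cells in the Cd3g and Cd3d levels was not tested.

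Cd209a, the mouse gene nearest to the dendritic cell lectin DC-SIGN, was at 5.81 and 11.2 CPM in the cultures, 0.561 CPM in macrophages and 0 in neutrophils. Both cultures lay above both outside libraries, although replicate 2 was higher than replicate 1 by 0.84 on the log2(CPM + 1) scale. The mean of 8.50 ± 3.81 CPM (SD, n = 2) was 15.1-fold the macrophage level and at least 18.1-fold higher than in neutrophils. Of the 6, it lay nearest the threshold. It no longer met the rule under TMM scaling, under quantile normalisation or with a pseudocount of 5 CPM, and with that pseudocount Cd226 did not meet it either. Its relatives Cd209b to Cd209g are near copies that can split reads with it. None of them was detected, and Cd209d came nearest with 0.844 and 1.48 CPM.

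**Figure D3:**
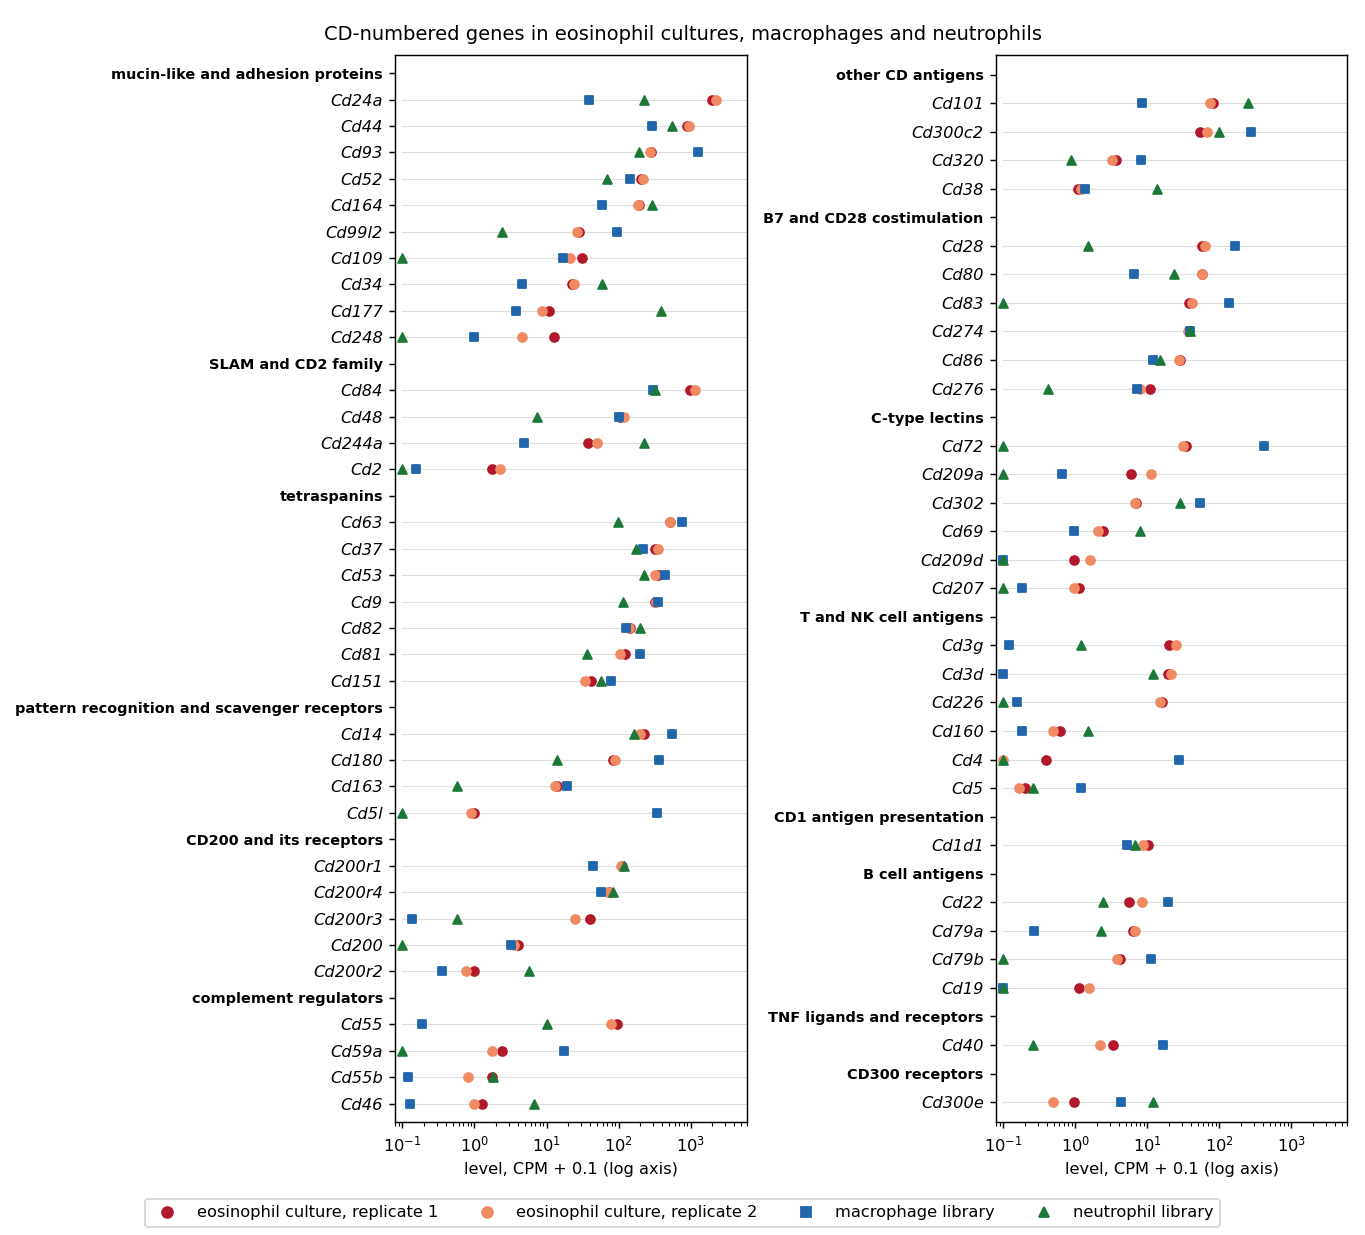
Level (CPM + 0.1, log axis) in each of the 4 libraries for the CD genes that reached 1 CPM in any library, in the lists by role; points at 0.1 are libraries with no count. The red and orange circles of the eosinophil libraries lie close together in most genes, and those of Cd24a (1999 and 2238 CPM) lie furthest to the right.

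The tetraspanins, 4-pass membrane proteins that gather integrins and receptors into membrane domains and build exosomes, were all detected (7 of 7), and 6 of 7 exceeded 100 CPM in both cultures. Cd63 was at 521 and 517 CPM in the eosinophil libraries, 753 CPM in the macrophage library and 99.5 CPM in the neutrophil library. The replicates were nearly equal, and both lay below the macrophage value and above the neutrophil value. The mean of 519 ± 2.64 CPM (SD, n = 2) was 5.22-fold the neutrophil level and passed the rule there. The macrophage level was 1.45-fold the eosinophil mean and did not pass it. The Cd63 difference from neutrophils, 2.37 on the log2(CPM + 1) scale, was below the median of 2.56 of the ribosomal protein genes. The part of the flat neutrophil profile in it was not tested. Cd9, an organiser of adhesion and fusion used as an eosinophil surface antigen, was at 320 and 329 CPM in the cultures, 357 CPM in macrophages and 115 CPM in neutrophils. At 2.83-fold the neutrophil level it was called against neither library.

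Cd37, a leukocyte tetraspanin, was at 322 and 358 CPM, 217 CPM in macrophages and 173 CPM in neutrophils. Cd53, its relative of all leukocytes, was at 353 and 321 CPM, 435 CPM in macrophages and 227 CPM in neutrophils. Neither was called. For Cd81, Cd82 and Cd151 the cultures lay between 34.4 and 145 CPM, and none was called. In all, none of the 7 tetraspanins was called against macrophages (median difference −0.37 on the log2(CPM + 1) scale, range −1.04 to 0.64), and 1 was higher than neutrophils (median 0.97). Of the markers given for this set of antigens, then, Cd24a was higher than both, Cd63 than neutrophils alone, and Cd9 than neither. Among 20 tetraspanin genes whose symbols do not have the Cd form, 12 were detected, 1 was higher and 3 lower than macrophages, and 4 were higher and 1 lower than neutrophils.

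The list of mucin-like and adhesion proteins held Cd24a and 9 others, all of them detected. Cd44, the hyaluronan receptor, was at 885 and 945 CPM in the cultures, 291 CPM in macrophages and 561 CPM in neutrophils, with a ratio of 3.15 to macrophages that missed the rule. Cd93, a C-type lectin-like receptor of myeloid cells and endothelium, was lower than in macrophages, at 283 and 276 CPM beside 1281 CPM, a 4.58-fold difference, and was at 192 CPM in neutrophils. Cd52, a very short lipid-anchored glycoprotein, was at 203 and 217 CPM, 144 CPM in macrophages and 69.5 CPM in neutrophils, and was not called. Cd164, a sialomucin of blood progenitors, was also not called, at 195 and 189 CPM, 59.2 CPM in macrophages and 289 CPM in neutrophils.

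Among genes of lower level in this list, Cd34, the sialomucin of progenitors that is also found on eosinophils and mast cells, was at 22.5 and 23.8 CPM beside 4.42 CPM in macrophages and 58.1 CPM in neutrophils. It was called higher than macrophages, 5.23-fold, but lost the call under TMM scaling, DESeq2 size factors and quantile normalisation. Cd177, a lipid-anchored antigen of neutrophils, showed the largest difference in the neutrophils' favour, at 10.7 and 8.63 CPM beside 392 CPM, which was 40.5-fold the eosinophil mean. The macrophage library had 3.72 CPM. Cd109, a relative of alpha-2-macroglobulin, was at 30.9 and 21.3 CPM, 16.8 CPM in macrophages and 0 in neutrophils, at least 55.6-fold higher than the last. Cd99l2, which acts in leukocyte transmigration, was at 28.1 and 26.3 CPM, 94.4 CPM in macrophages and 2.35 CPM in neutrophils, and was higher than neutrophils by 11.6-fold. With 2 genes higher and 1 lower than macrophages, and 4 higher and 1 lower than neutrophils, this list held calls in both directions against each library.

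Cd248 (endosialin), an antigen of pericytes and stromal fibroblasts, was the single CD gene of at least 1 CPM in either eosinophil library that differed by more than 2-fold between them on the log2(CPM + 1) scale. It was at 12.8 and 4.46 CPM, a plain CPM ratio of 2.87, with 0.879 CPM in macrophages and 0 in neutrophils. Of the 12448 genes with at least 1 CPM in either library 3.09% differed by more than 2-fold on that scale, and of the 57 such CD genes 1 did. In plain CPM, Cd55b also differed, with a ratio of 2.27, as did Cd59b (2.65) and Cd300e (2.20), which stayed under 1 CPM in both libraries. As a sum, stroma and endothelium markers moved with Cd248: the 12 markers summed to 2964 and 905 CPM, a ratio of 3.27, 11 of the 12 were higher in replicate 1, and Lum was at 0 in both. Of the 12, 9 were detected. The collagen gene Col1a1 was at 807 and 189 CPM, while the endothelial markers Pecam1 (117 and 110 CPM) and Kdr (9.35 and 8.21 CPM) differed little. The 12 markers summed to 386 CPM in macrophages and 90.9 CPM in neutrophils, where 9 of 12 were at 0. The part of stromal cells in the Cd248 level was not tested. Cd248 was called higher than neutrophils, and without replicate 2 it was also called higher than macrophages, which would make 7 genes higher than both. The median absolute log2 ratio was 0.16 over the 57 CD genes, Cd248 among them, and 0.11 over all 12448. Some others lay further apart than that median. Among the genes higher than both outside libraries, replicate 1 minus replicate 2 was −0.84 for Cd209a and 0.69 for Cd200r3.

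**Figure D4:**
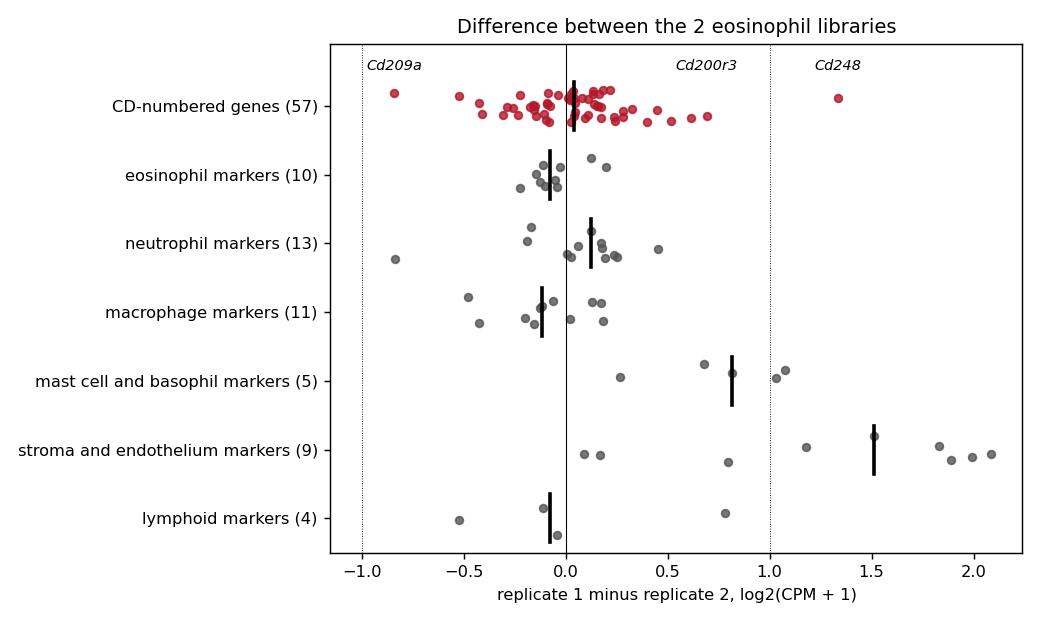
Difference between eosinophil replicate 1 and replicate 2 in log2(CPM + 1) for the CD genes and for the marker lists, in genes with at least 1 CPM in either library; bars are medians and dotted lines mark a 2-fold difference. The 57 CD genes centre on 0.04, while the mast cell and basophil markers centre on 0.81 and the stroma and endothelium markers on 1.51.

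Genes of the SLAM and CD2 families were detected in 4 of 4 (Cd2, Cd48, Cd84 and Cd244a). SLAM receptors bind each other or their own kind between leukocytes. Cd84, a self-binding SLAM receptor, was at 972 and 1137 CPM in the cultures, 301 CPM in macrophages and 323 CPM in neutrophils. Both replicates lay above both outside libraries, but at 3.51-fold and 3.26-fold it stayed below the threshold against each. Cd48 is the ligand of Cd244a and of Cd2. It was at 106 and 119 CPM in the cultures, a level like the 101 CPM of macrophages, and was 15.3-fold the 7.35 CPM of neutrophils. Its receptor Cd244a (2B4) was the only CD gene called higher than macrophages and lower than neutrophils. At 37.3 and 50.0 CPM it was 9.27-fold the 4.71 CPM of macrophages, while the 227 CPM of neutrophils was 5.20-fold the eosinophil mean. The call against neutrophils was lost under TMM scaling, DESeq2 size factors and quantile normalisation. Ligand and receptor transcripts of this pair were thus both present in the cultures. Among 6 SLAM family genes whose symbols do not have the Cd form, 3 were detected and 3 were lower than in macrophages. Of these Slamf7, chosen after its values were seen, was at 6.67 and 8.50 CPM beside 281 CPM.

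Costimulation genes of the B7 and CD28 families were all detected (6 of 6). Cd80 and Cd86 are the ligands by which antigen-presenting cells engage CD28 on T cells. Cd80 was at 58.1 and 57.0 CPM, beside 6.43 CPM in macrophages and 23.2 CPM in neutrophils, 8.95-fold the former and called higher. Cd86 was called against neither. Cd28 itself, the T cell receptor of these ligands, was at 57.7 and 62.3 CPM in the cultures, 165 CPM in macrophages and 1.41 CPM in neutrophils. Both cultures and the macrophage library thus had Cd28 transcripts, and the eosinophil mean was 42.6-fold the neutrophil level, with a counting interval from 22.4 to 93.2 since that rests on 9 counts. Cd83, a maturation antigen of dendritic cells, was at 37.8 and 41.9 CPM, 135 CPM in macrophages and 0 in neutrophils, at least 84.9-fold higher than the last.

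Cd274 and Cd276 are inhibitory or mixed members of the B7 family, and both were detected. Cd274 (PD-L1), given here after its values were seen, had nearly the same level in all 4 libraries, 37.5 and 36.8 CPM in the cultures, 39.2 CPM in macrophages and 38.8 CPM in neutrophils. Cd276 (B7-H3) was called higher than neutrophils, which had 2 counts of it, with a ratio of 29.8 and a counting interval from 8.25 to 246. Of the 6 genes 1 was higher than macrophages, 3 were higher than neutrophils and none was lower than either. The TNF family genes numbered 3. Cd40, the receptor for T cell help on antigen-presenting cells, was at 3.23 and 2.10 CPM, beside 16.6 CPM in macrophages, and was lower, with 6.24 times as much in macrophages. Neutrophils had 1 count of it. Cd27 stayed under 1 CPM in both cultures, and its ligand Cd70 was at 0 in all 4 libraries.

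Of the receptors for microbial products and scavenger receptors, 2 of 5 were lower than in macrophages and none was higher. Cd5l, a secreted scavenger protein of tissue macrophages, was at 0.893 and 0.788 CPM in the cultures and 342 CPM in the macrophage library, 406 times the eosinophil mean, and at 0 in neutrophils. This was the largest difference of any CD gene in the macrophages' favour. Cd180, a Toll-like receptor relative that modulates lipopolysaccharide responses, was at 83.0 and 88.5 CPM, 364 CPM in macrophages and 14.1 CPM in neutrophils. It was lower than macrophages and higher than neutrophils, 6.09-fold. Cd14, the lipopolysaccharide coreceptor, was called against neither, at 222 and 198 CPM, 557 CPM in macrophages and 165 CPM in neutrophils. Cd163, the scavenger receptor for haemoglobin bound to haptoglobin, was at 14.0 and 12.9 CPM in the cultures and 18.9 CPM in macrophages. In neutrophils it had 3 counts, a ratio of 28.6 with a counting interval from 9.78 to 139. Of these 5 genes 3 were detected, and 2 were higher than neutrophils. Beside the levels of Cd14 and Cd163, which missed the rule against macrophages, stand the 6564 and 8032 CPM of the macrophage markers in the cultures. Of those markers 4 were lower and 1 higher in the cultures than in the macrophage library. The part of macrophages in the Cd14 and Cd163 levels was not tested.

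Besides the Cd209 genes, the C-type lectins gave a further gene with opposite calls. Cd72, an inhibitory lectin best known from B cells, was at 34.7 and 31.1 CPM, 412 CPM in macrophages and 0 in neutrophils. Macrophages had 12.5 times the eosinophil mean, and the eosinophil mean was at least 70.0-fold higher than neutrophils. Cd302, an endocytic lectin of phagocytes, was lower than macrophages, at 6.95 and 6.73 CPM beside 53.3 CPM, which was 7.79-fold the eosinophil mean, and neutrophils were at 28.3 CPM. Cd69, the early activation antigen, was at 2.31 and 1.94 CPM, 0.860 CPM in macrophages and 7.82 CPM in neutrophils. In this list of 11 genes 4 were detected, 1 was higher and 2 lower than macrophages, and 2 were higher than neutrophils.

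Antigens of B cells were all detected (4 of 4) but low. Cd79a, a signalling chain of the B cell receptor, was at 6.20 and 6.60 CPM, beside 0.168 CPM in macrophages and 2.19 CPM in neutrophils, and was higher than macrophages by 38.0-fold. Its partner chain Cd79b was not called against macrophages, at 4.12 and 3.74 CPM beside 11.2 CPM, and was at 0 in neutrophils, so at least 8.37-fold higher than these. Cd22, an inhibitory Siglec, was at 5.51 and 8.37 CPM, 19.0 CPM in macrophages and 2.35 CPM in neutrophils, and was not called. The B cell markers Ms4a1 and Pax5 were at 0.868 and 1.02 CPM and at 0.992 and 1.05 CPM in the cultures. Ebf1, a B cell transcription factor, was at 5.11 and 2.56 CPM, 0.898 CPM in macrophages and 0 in neutrophils. The part of B cells in these levels was not tested. Cd1d1, which presents lipids to NKT cells, was at 9.95 and 8.63 CPM, 5.06 CPM in macrophages and 6.73 CPM in neutrophils. Its near copy Cd1d2 was at 0.819 and 0.624 CPM, and neither was called.

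Of the CD300 receptors, paired activating and inhibitory lipid receptors of myeloid cells, Cd300e was at 0.868 and 0.394 CPM in the cultures, 4.25 CPM in macrophages and 12.0 CPM in neutrophils. It was lower than neutrophils, 19.1-fold, and below macrophages without meeting the rule. Cd300c was under 1 CPM in all 4 libraries. Cd300c2, of the same family, was at 54.3 and 66.6 CPM, 273 CPM in macrophages and 99.4 CPM in neutrophils, and was lower than macrophages, 4.52-fold. Near copies in this family can split reads. Of the remaining antigens, Cd101, an inhibitory immunoglobulin-family protein, was at 82.0 and 73.5 CPM, beside 8.21 CPM in macrophages and 251 CPM in neutrophils. It was 9.47-fold the macrophage level and called higher. Cd38, an NAD-consuming surface enzyme, was lower than neutrophils, at 0.992 and 1.12 CPM beside 13.6 CPM, and was at 1.26 CPM in macrophages. Cd320, the receptor for vitamin B12 bound to transcobalamin, was at 3.55 and 3.15 CPM, 8.01 CPM in macrophages and 0.782 CPM in neutrophils, and was not called.

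Several calls lay near the threshold of 2 on the log2(CPM + 1) scale, taking the replicate with the smaller difference. Just inside the rule against macrophages were Cd209a (2.12) and Cd34 (2.11) on the higher side, and just outside were Cd84 (1.69) and Cd164 (1.65). On the lower side Cd180 (−2.03) and Cd300c2 (−2.02) were just inside, and Cd99l2 (−1.71) and Cd83 (−1.66) just outside. Against neutrophils, Cd79b (2.25) and Cd200 (2.13) were just inside on the higher side, with Cd84 (1.58) and Cd52 (1.54) outside, and Cd38 (−2.79) and Cd244a (−2.16) just inside on the lower side, with Cd302 (−1.88) and Cd200r2 (−1.81) outside. Cd84 was thus the nearest miss on the higher side against both libraries. Calls other than those named above were also lost under some settings. With a pseudocount of 5 CPM these were Cd79a, Cd34, Cd40, Cd59a, Cd180 and Cd300c2 against macrophages, and Cd163, Cd200, Cd248, Cd276, Cd79b, Cd38 and Cd300e against neutrophils. After quantile normalisation they were Cd93, Cd180 and Cd300c2 against macrophages and Cd200 and Cd79b against neutrophils.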

How the data were processed

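Messenger RNA of 2 BALB/c eosinophil cultures was sequenced from stranded libraries, per the labels' protocols. The authors deposited counts per gene, whole numbers without normalization, for these and, as files of the whole series, for 1 macrophage and 1 neutrophil library of other studies. The submitters' processing notes name Trim Galore 0.4.2, STAR 2.5, featureCounts and the mm9 build, without roles; how strand was set was not given in the sources used here. CPM is the count over the library total. Calls were a 4-fold rule on log2(CPM + 1) in both eosinophil libraries over 25075 genes shared by the 4 tables (26 names were not shared), with no count model and no p. With fewer than 10 outside counts, ratios have 95% exact Poisson intervals, and intervals and floors cover counting error only. The rule was tried on simulated counts with planted changes above 4-fold, in genes of higher level and with 1 common profile for all libraries. That trial does not cover changes of 4-fold, genes of low level or the flat neutrophil profile.

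Alternatives were TMM (edgeR 4.0.16) and DESeq2 1.42.0 size factors (R 4.3.3), pseudocounts of 0.5 and 5 CPM, a filter, folds of 2 and 8, each replicate left out, and quantile normalisation. Tables were handled in Python 3.11.15 with pandas 2.3.3, and intervals came from scipy 1.17.1. Per-library values are given for the label's markers, genes called against both libraries, the 10 largest differences each way per library, up to 3 genes of highest mean per list, and genes next to the threshold. The genes and lists were chosen with earlier results of these data known. Peak lists were not used, since no mm9 annotation was used to tie peaks to genes.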

Additional observations from a re-analysis of the deposited data

How the results depend on the processing

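The counts of CD genes called depended most on the fold required. At 2-fold, 21 were higher and 16 lower than macrophages (2623 and 1915 over all 25075 genes). Against neutrophils 30 were higher and 10 lower (3264 and 2862 over all genes). Against both, 12 were higher and 2 lower (Cd300e and Cd302). At 8-fold, 7 were higher and 3 lower than macrophages (458 and 115 over all genes), and 11 higher and 1 lower than neutrophils (632 and 336). Higher than both were 4, without Cd55 and Cd209a. A pseudocount of 5 CPM left 8 higher and 5 lower than macrophages (593 and 311 over all genes). It left 13 higher and 2 lower than neutrophils (682 and 547), and 4 higher than both. At each of these settings the share lower than neutrophils was near that over all genes. Quantile normalisation, chosen after seeing the data, gave 10 higher and 7 lower than macrophages (875 and 651 over all genes). Against neutrophils it gave 17 higher and 6 lower (1177 and 1008 over all genes). It gave 5 higher than both, and 1, Cd300e, lower than both. For both libraries at once, counts over all genes were not taken at any of these settings. The median difference of the CD genes from macrophages was 0.17 with DESeq2 size factors, 0.086 with TMM, 0.43 in genes of at least 1 CPM in any library, 0.11 with a pseudocount of 5 CPM and 0.054 after quantile normalisation. From neutrophils it was 0.73 with DESeq2 size factors and with a pseudocount of 0.5 CPM, 0.76 with TMM, 1.10 with the filter, 0.24 with a pseudocount of 5 CPM, 0.41 after quantile normalisation, and 0.61 to 0.64 with 1 replicate left out. The causes were not tested. TMM and quantile normalisation moved the median of all genes of at least 1 CPM against macrophages from 0.06 to −0.11 and −0.08, and TMM moved that against neutrophils from −0.03 to 0.23; the share of calls over all genes that were higher went from 67.7% to 57.1% and 57.3% against macrophages, and against neutrophils from 63.2% to 73.4% with TMM, 53.9% after quantile normalisation and 55.5% with a pseudocount of 5 CPM. The 42 called values among the 108 named kept their sign in every alternative. A call needs 4-fold in both replicates, so leaving out a replicate or changing the pseudocount cannot reverse its sign. The sign therefore says little of how firm a call is, and several calls were lost, as given above. Without replicate 1, and also with a pseudocount of 0.5 CPM, Cd200r2 and Cd46 joined the genes lower than neutrophils, making 6. Over all genes 970 and 982 were then lower. That pseudocount also added Cd2 and Cd59a to those higher, making 21, beside 1938 over all genes. In the neutrophil library 3 counts are worth 0.469 CPM, and differences at lower levels were not detectable there. No paired analysis was possible because the outside libraries carry no replicate number and there was 1 group of RNA samples.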
